A study of Drosophila melanogaster with 4 samples.

Results

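H3K23ac regions on the right arm of chromosome 3 (3R) of *Drosophila melanogaster*, outside its proximal end, were described from 3 lists of enriched regions made by chromatin immunoprecipitation and sequencing (ChIP-seq). Members were chosen by position alone: regions on 3R that start beyond 2000000 on FlyBase release 5, without those overlapping 2480000 to 2830000 or 12480000 to 12800000. As background, these left-out intervals hold the Antennapedia and bithorax complexes of homeotic genes. The rule kept 2365 of 10281 regions (23.004%) of replicate 1, 1732 of 7422 (23.3%) of replicate 2 and 4089 of 18064 (22.6%) of the combined list, in all 8186 of 35767. On the rest of 3R, the first 2 Mb held 211, 150 and 358 regions, the first left-out interval 48, 42 and 90, and the second 43, 37 and 81. The analysed span had 25.2 Mb. At its proximal limit, the last region left out of replicate 1 started at 1997812 with a score of 0.90 and the first one kept at 2012513 with 0.48. In replicate 2 these starts were 1998471 and 2010075, with scores of 0.64 and 0.60, and in the combined list 1997704 and 2010072, with 0.65 and 0.26.

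All 4 libraries of the series came from wild-type embryos of the strain Oregon-R (Oregon-R-modENCODE) labelled as 14 to 16 hr old. The 2 ChIP replicates carry the lists, and each of the 2 input libraries (chromatin without immunoprecipitation) was the input for 1 of them. Both groups were crosslinked whole embryos, so each list averages over all tissues. There is 1 strain, 1 stage and 1 antibody and no second condition, and no label says that the replicates came from separate collections, so the spread between them may be technical. With 2 lists of 1 group no test over samples exists, and what follows is a description: means are given ± SD over the 2 replicates and intervals on shares are 95% Wilson intervals, which cover counting error only. The reads behind the lists are unknown in number, so their precision could not be derived. Bases outside a list are those that did not pass the authors' threshold, whatever acetylation they carry. Genes and sequences under the regions were not analysed here.

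Acetylation of lysines in the tail of histone H3 neutralises their positive charge, loosens the contact of histone and DNA, and is recognised by bromodomain proteins. It is typical of accessible and transcribed chromatin, while silenced chromatin is poor in it. In flies the acetyltransferase CBP is known to place H3K23ac.

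The H3K23ac regions of 3R were narrow, numerous and spread over the whole span. Replicate 1 covered 21.1% of its bases with 93.7 regions per Mb, replicate 2 covered 14.9% with 68.6 regions per Mb, and the mean was 18.0% ± 4.37 (SD, n = 2). The combined list covered 43.1%, with 162 regions per Mb. Replicate 1 was therefore the longer list on 3R, as in the whole series. Replicate 1 had a median region width of 1845 bp, replicate 2 of 1799 bp and the combined list of 1873 bp. No region was narrower than 1301 bp in a replicate or 1001 bp in the combined list. Few regions were broad: 85, 54 and 404 reached 5 kb, and the widest had 13356, 14228 and 25639 bp.

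Along the arm, densely covered windows stood directly beside little covered ones. In 100 windows of 250 kb with at least 80% of their bases in the span, coverage ran from 4.04% to 51.1% in replicate 1 (median 20.4%), from 2.23% to 53.6% in replicate 2 (median 13.6%) and from 15.0% to 82.7% in the combined list (median 42.6%). No window of this size was without regions in either replicate. The order of the windows was much alike in the replicates, with a Spearman's rho of 0.911 over the 100 windows. That value is a description, since windows are neighbours on 1 arm and share their libraries. Replicate 1 had the higher coverage in 94 windows and replicate 2 in 6.

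**Figure D1:**
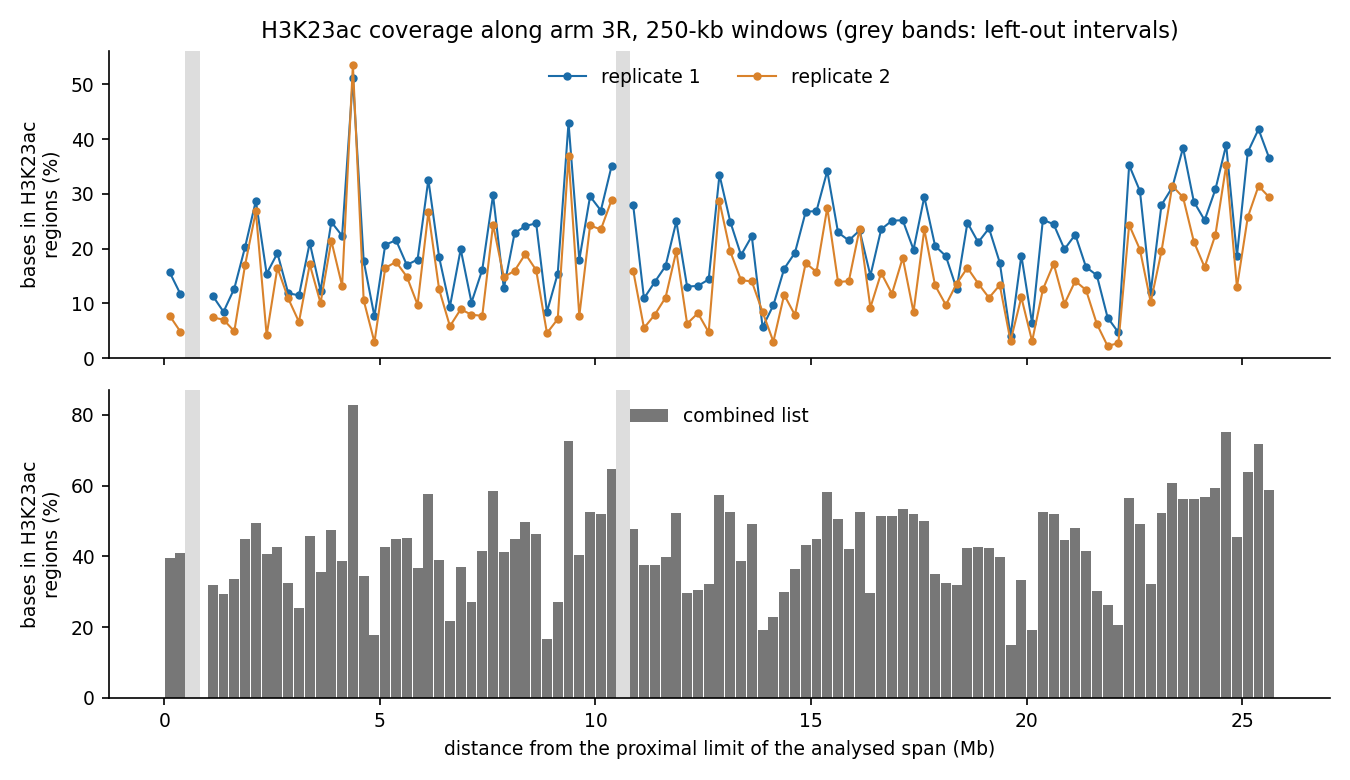
Share of bases in H3K23ac regions (vertical axes, %) in 250-kb windows of arm 3R against the distance from the proximal limit of the analysed span (Mb), for both replicates (top, lines) and the combined list (bottom, bars); grey bands are the left-out intervals. Both replicates peak in the same window, at 51.1% and 53.6%, and 12 of the last 14 windows are above the arm's median in each replicate.

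The most covered window lay at 6.25 to 6.5 Mb and was the same in both replicates, with 51.1% in replicate 1 and 53.6% in replicate 2 (mean 52.4% ± 1.73, n = 2) and 82.7% in the combined list. It held 47 regions of replicate 1 and 41 of replicate 2, with median widths of 2397 and 2412 bp, wider than on the arm as a whole. Median scores in this window, 0.63 and 0.67, were close to those of the arm (0.65 and 0.65), and ranked 79 of 100 windows in replicate 1 and 23 of 97 in replicate 2. In the combined list it had 37 regions, below the median of 40 per window, with a median width of 3961 bp, the largest of the 100 windows. Their median score of 0.48, beside 0.45 on the arm, ranked 8 of 100. Coverage changed steeply at its borders. In steps of 25 kb the replicates covered 10.6% and 0% at 6.25 to 6.275 Mb but 53.4% and 36.7% in the next step. At the far side they covered 78.7% and 73.8% at 6.475 to 6.5 Mb and then 20.0% and 15.6%. Within it the step at 6.375 to 6.4 Mb was covered to 81.4%, 83.4% and, in the combined list, 98.1%.

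Next in coverage came 11.25 to 11.5 Mb, with 43.0% in replicate 1 and 36.9% in replicate 2 (mean 40.0% ± 4.30). The other 3 of the 5 most covered windows were all near the distal end of the arm. The window at 26.5 to 26.75 Mb had 38.9% and 35.2%, that at 27.25 to 27.5 Mb had 41.8% and 31.4%, and that at 25.5 to 25.75 Mb had 38.4% and 29.4%. Their mean coverage was 37.1%, 36.6% and 33.9%. The last of these 3 windows was the lowest of them in both replicates. The other 2 changed places between replicates, so the order of those 2 is not resolved.

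Of the 5 least covered windows, 4 lay between 21.5 and 24.25 Mb, just before the dense distal end. At 21.5 to 21.75 Mb the replicates covered 4.04% and 3.13% with 6 and 5 regions, and the combined list 15.0%. At 24 to 24.25 Mb they covered 4.70% and 2.75%, and not a single base was covered in both. The remaining ones were 22 to 22.25 Mb, with 6.34% and 3.09%, 23.75 to 24 Mb, with 7.43% and 2.23%, and 6.75 to 7 Mb, with 7.62% and 2.92%. The last of these lies 250 kb distal of the most covered window of the arm. The share of these windows in which short reads can be aligned was not analysed here.

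Most windows were part of short runs on 1 side of the arm's median mean coverage: of 46 runs, 20 were a single window, 11 had 2 windows and 9 had 3. Runs also ended where windows were missing because of the left-out intervals. This parted 2 to 2.5 Mb from 3 to 3.75 Mb, both below the median. Likewise 11.75 to 12.5 Mb was parted from 12.75 to 13 Mb, both above it. The longest run of neighbouring windows above the median (17.4%) had 7 windows, from 25 to 26.75 Mb, and averaged 31.6% in replicate 1 and 25.1% in replicate 2. A run of 6 such windows spanned 16.75 to 18.25 Mb, at 25.9% and 18.7%. The longest runs below the median had 5 windows each, at 8.25 to 9.5 Mb (14.8% and 8.60%) and at 21 to 22.25 Mb (14.1% and 8.34%). The length of the latter rests on its first window, at 21 to 21.25 Mb. Its mean of 17.37% was barely under the median of 17.39%, with 23.7% in replicate 1 and 11.0% in replicate 2.

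Coverage was highest in the distal section of the arm in both replicates. In sections of about 5 Mb from the proximal to the distal end, replicate 1 covered 18.0%, 20.6%, 19.6%, 21.4% and 24.8%. For replicate 2 the same sections had 13.4%, 15.0%, 13.4%, 14.4% and 17.7%, so that the distal section was highest in both, while the first 4 differed by about as much among themselves in replicate 1 as the distal one exceeded the next highest. Cut into 3 equal parts, the distal part had 1.19 ± 0.0477 times the coverage of the proximal part (1.22 in replicate 1 and 1.15 in replicate 2). On the arm above 5 Mb, cut into 3 parts anew, the ratio was 1.05 (1.08 and 1.01). The other arms compared (2L, 3L and X) had larger ratios of their distal to their proximal part, from 1.26 to 1.57 in replicate 1 and from 1.27 to 1.57 in replicate 2.

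Beyond 24.25 Mb, a border chosen after the values were seen, coverage was higher than on the rest, although the most covered window of the arm lay elsewhere. From there to the end of the arm replicate 1 covered 30.3% and replicate 2 covered 23.1%, against 19.5% and 13.5% on the rest of the span, ratios of 1.55 and 1.71. The border was placed at a step in coverage. The window just before it had 4.70% and 2.75% and the window just after it 35.2% and 24.3%, with 20.7% and 56.5% in the combined list. Of the 14 windows beyond the border, 12 were above the arm's median in each replicate and 13 in the combined list. Sharing was higher there, with a Jaccard index (bases covered in both replicates over bases covered in either) of 0.425 against 0.331 on the rest. Of the regions of replicate 1, 61.2% were found in replicate 2, against 51.1% on the rest. Regions meet more often where more bases are covered, and the border was chosen by coverage. The part of this in the sharing was not tested.

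A distal end denser than the rest was also present on the other arms compared, so its presence does not set 3R apart. On 2L, 3L and the X, each without the 2 Mb at its centromere-side end, the distal 3.66 Mb were covered to 24.6%, 28.4% and 25.3% in replicate 1, against 17.4%, 18.0% and 13.3% on the rest. The distal ends in replicate 2 had 19.4%, 22.1% and 15.5%, against 12.5%, 12.6% and 6.92%. The ratio of the distal end to the rest on 3R lay within the range of the other arms in both replicates (1.41 to 1.90 in replicate 1 and 1.55 to 2.24 in replicate 2). Against a proximal end of the same length, however, 3R had the highest ratio. It was 1.93 against 1.21 to 1.49 elsewhere in replicate 1, and 2.16 against 1.21 to 1.60 in replicate 2. The distal end of 3R was also more covered than that of each other arm in both replicates. The border had been chosen on 3R, which favours 3R in such comparisons. The proximal end of 3R was also without the first left-out interval, which held 48 and 42 regions of the replicates. The part of this in the ratio was not tested.

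**Figure D2:**
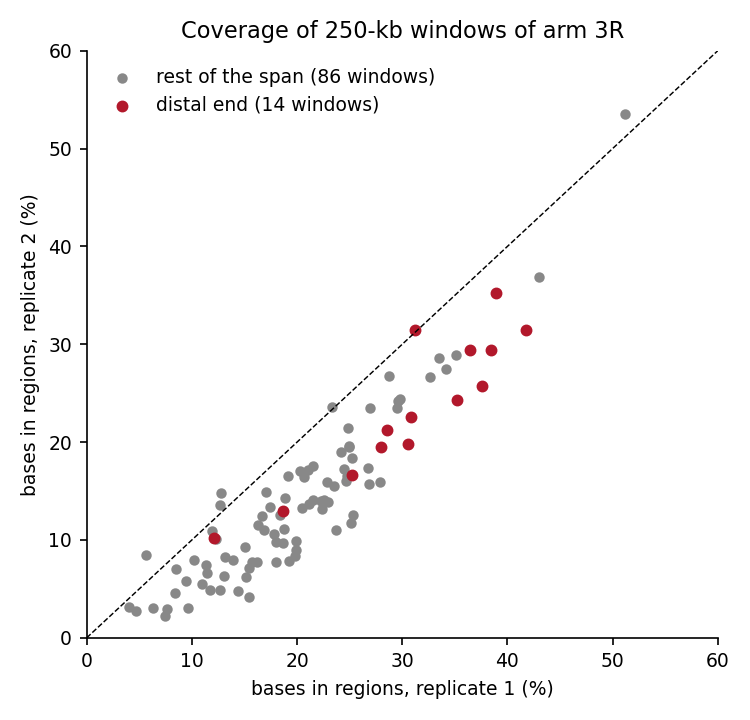
Share of bases in H3K23ac regions (%) in replicate 1 (horizontal) and replicate 2 (vertical) for 250-kb windows of arm 3R, one point per window; red points are the 14 windows beyond 24.25 Mb, grey points the other 86, and the dashed line marks equal coverage. Nearly all windows lie below the line, the order is alike in both replicates (Spearman's rho 0.911), and most distal windows lie in the upper part.

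Neighbouring regions on 3R tended to lie close together. From one region to the next the median distance was 3948.5 bp in replicate 1 and 4411 bp in replicate 2, and 1460 bp for combined regions. In replicate 1, 21.3% of these distances were under 1 kb and 10.7% over 20 kb, and in replicate 2, 20.9% and 17.5%. The short distances were thus equally common in both lists while long ones were more common in the shorter list. The largest distance between neighbours was 130746 bp in replicate 1 and 222506 bp in replicate 2.

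In the replicates, regions were clustered at 250 kb, but less so on 3R than on the other arms compared. The variance of the number of regions per 250-kb window, divided by its mean, is 1 for regions placed independently and evenly. On 3R it was 2.75 in replicate 1 and 3.91 in replicate 2 (mean 3.33 ± 0.825, n = 2). With regions under 1000 bp apart joined it was 1.44 and 2.43 (mean 1.93 ± 0.70). Unjoined, arm 2L had 4.38 and 5.45, arm 3L 4.19 and 5.13, and the X 4.49 and 5.17. In each replicate 3R had the lowest value of these 4 arms at every window size tried from 25 to 1000 kb. At 25 kb the values were close together, and the range over the 4 arms was 1.21 to 1.36 in replicate 1 and 1.61 to 1.65 in replicate 2. At 1000 kb the value was 2.69 on 3R against 5.11 to 8.70 elsewhere in replicate 1, and 3.42 against 6.06 to 9.60 in replicate 2. With joined regions, an alternative chosen after seeing the data, 3R again had the lowest value at each of these sizes in both replicates. In replicate 1 its joined value was under 1 at 25 kb (0.80) and 50 kb (0.98). At 250 kb the joined values were 3.02 and 3.41 on 2L, 2.14 and 3.07 on 3L, and 2.68 and 3.89 on the X. In the joined combined list 3R had 0.94 at 250 kb, under 1, and was not the lowest, since 2L had 0.77. No test of this difference between arms exists, since the arms share 2 libraries. Intervals inside the span were left out on 3R only, and the part of this in the difference was not tested.

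**Figure D3:**
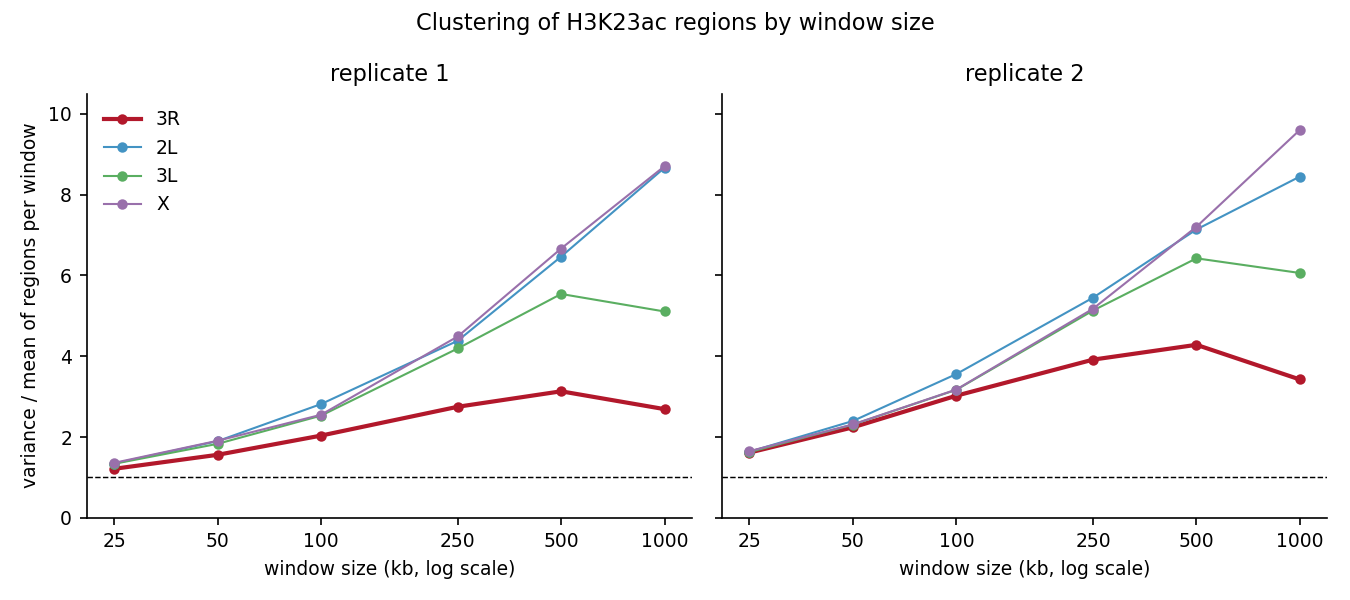
Variance over mean of the number of H3K23ac regions per window (vertical axis) against window size in kb (log scale) for replicate 1 (left) and replicate 2 (right), on arms 3R, 2L, 3L and X without their proximal ends, and 3R also without the left-out intervals. The dashed line at 1 is the value for independent, even placement. Arm 3R (thick red line) is the lowest at each size, and the gap widens from 25 to 1000 kb.

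The same was seen in how far the density of 1 window carried over to the next. For coverage in windows of 100 kb, Pearson's r between direct neighbours on 3R was 0.272 in replicate 1 and 0.261 in replicate 2, over 247 pairs of windows. On 2L, 3L and the X it was 0.434, 0.443 and 0.554 in replicate 1, and 0.348, 0.458 and 0.439 in replicate 2. At an offset of 200 kb it had dropped to 0.075 and 0.051 on 3R, against 0.258 to 0.400 and 0.139 to 0.294 on the other arms. The order did not hold at 300 kb, where 3R had 0.167 and 0.113 and 2L had 0.153 and 0.0813. These values describe windows of the same libraries and carry no test.

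In the combined list the clusters appeared as wide regions in place of many. Its number of regions per 250-kb window ranged from 22 to 59 with a variance over mean of 1.496, nearer to 1 than in either replicate. Region number and coverage of the windows were nearly interchangeable in the replicates (rho 0.939 and 0.956), but only loosely related in the combined list (rho 0.428). There it was the median width in a window, from 1247 to 3961 bp, that followed coverage (rho 0.718). The 5 widest combined regions all lay in windows among the 24 most covered of the arm. They were 26537816 to 26563454 (25639 bp), 24435024 to 24460068 (25045 bp), 6375248 to 6399604 (24357 bp), 5778258 to 5802398 (24141 bp) and 27253700 to 27277164 (23465 bp). Each was broken into pieces in the replicates. The widest held 4 regions of replicate 1 and 7 of replicate 2, and the one in the most covered window 5 and 3.

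Most H3K23ac regions of replicate 2 on 3R were met by a region of replicate 1. Of the 1732 regions, 1266 shared at least 1 base with replicate 1 (73.1%, interval 71.0 to 75.1%). Over the whole list of replicate 2 the share was 72.7%. In the longer list of replicate 1, 1252 of 2365 regions were shared (52.9%, interval 50.9 to 54.9%), against 51.8% over the whole list. Both shares on 3R are thus near those of all regions. When at least 50% of a region had to be covered they were 62.6% and 42.7%. In bases, 2.36 Mb were covered in both replicates and 6.73 Mb in either, a Jaccard index of 0.351, beside 0.339 on 2L, 0.352 on 3L and 0.269 on the X.

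Width and spacing went along with sharing. In replicate 1 the share found in replicate 2 was 32.4% (interval 28.8 to 36.3%) for the narrowest quartile of regions, with a median width of 1387 bp. It was 80.2% (76.8 to 83.2%) for the widest, with a median of 3351 bp. For replicate 2 the same quartiles had 55.4% (50.7 to 60.04%) and 91.7% (88.7 to 93.9%). Ordered by score, the lowest and highest quartiles had 46.6% and 63.6% in replicate 1, and 64.4% and 81.5% in replicate 2, a smaller contrast than by width. A wide region meets more bases of the other list, and the part of this in the contrast was not tested.

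Solitary regions were shared least. In replicate 1, 876 regions had another of their list within 1 kb, and 63.9% of them (interval 60.7 to 67.0%) were found in replicate 2. This fell with the distance to the nearest region, to 53.7% at 1 to 5 kb, 35.3% at 5 to 20 kb and 22.0% (12.8 to 35.2%) for the 50 regions with none within 20 kb. For replicate 2 the shares were 79.1%, 72.3%, 67.7% and 57.5%, the last with an interval of 46.6 to 67.7% over 80 regions. Solitary regions scored no lower: the median score was 0.67 for the most isolated and 0.65 for the closest regions of replicate 1, and 0.65 and 0.64 in replicate 2. They were narrower, with medians of 1627.5 against 1951 bp and 1562 against 1890 bp. Close neighbours also lie in densely covered windows, and the part of width and local density was not tested.

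**Figure D4:**
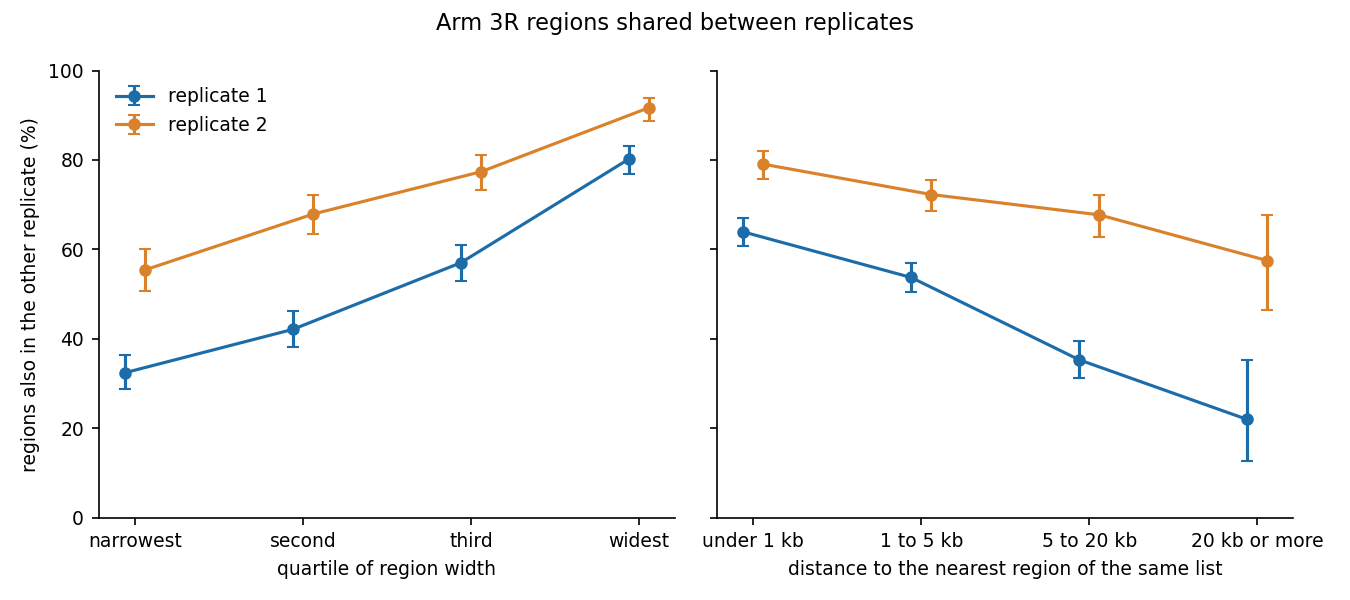
Share of arm 3R regions that have at least 1 base in a region of the other replicate (vertical axis, %, with 95% Wilson intervals) by quartile of region width (left) and by distance to the nearest region of the same list (right), for replicate 1 (blue) and replicate 2 (orange). The share climbs from 32.4% to 80.2% and from 55.4% to 91.7% with width, and drops from 63.9% to 22.0% and from 79.1% to 57.5% with isolation.

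The bases covered in both replicates formed 1419 stretches with a median of 1507 bp, 114 of them 3 kb or longer and 15 of them 5 kb or longer. At 12146805 to 12156763 lay the longest, with 9959 bp. It belonged to a single region in each list, 11650 bp wide in replicate 1, 9959 bp in replicate 2 and 17551 bp in the combined list. Its scores, 0.73, 0.79 and 0.64, were above those of 74.1%, 92.7% and 96.3% of the arm's regions. The second, of 8534 bp at 18584064 to 18592597, scored higher, with 0.93 in replicate 1 and 0.84 in replicate 2. Next came 14830520 to 14837859, of 7340 bp, and only 1104 bp beside it lay another long stretch, 14823745 to 14829415, of 5671 bp. Both were within the same region of replicate 2, the widest of that list on the arm with 14228 bp (14823745 to 14837972), which replicate 1 split into 2.

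Of the remaining members of the 10 longest, 5 lay beyond 24.25 Mb. These were 24439784 to 24446847 (7064 bp), 25951320 to 25957993 (6674 bp), 24730972 to 24737506 (6535 bp), 25493140 to 25499369 (6230 bp) and 27528206 to 27534425 (6220 bp). The others were 6375338 to 6382105 (6768 bp), in the most covered window, and 7187802 to 7194409 (6608 bp). In all, 7 of the 15 stretches of at least 5 kb lay beyond 24.25 Mb, which holds 14.5% of the span, and 2 lay below 12 Mb. Of all 1419 stretches of any length, 315 lay beyond 24.25 Mb, at 86.2 per Mb against 51.2 on the rest. Stretches of at least 3 kb numbered 10.7 per Mb beyond 24.25 Mb, a border chosen by coverage, and 3.48 per Mb on the rest. They were found in 52 of the 100 windows of 250 kb, and most of all, 9, at 6.25 to 6.5 Mb.

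Stretches of 5 kb or more were about as frequent on 3R (0.594 per Mb) as on 2L (0.571), and less frequent than on 3L (1.02), but more than on the X (0.0979). The longest one had 9959 bp on 3R, 13232 bp on 2L, 9258 bp on 3L and 7794 bp on the X. They held 4.25% of the bases shared on 3R. Their number depended on small breaks: with regions under 1000 bp apart joined in each list, 80 reached 5 kb.

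At the other extreme, few long intervals of 3R were without a region in any of the 3 lists. There were 3 of at least 50 kb, together 0.69% of the span. They were 5099177 to 5163867 (64.7 kb), 15906113 to 15963180 (57.1 kb) and 9987043 to 10039521 (52.5 kb). On 2L, 3L and the X there were 9, 5 and 14, or 2.75%, 1.42% and 4.52% of these spans, so that 3R had the smallest share. Arm 3R was also the most covered of these arms, and the part of this in the share was not tested. The next empty intervals on 3R were 10847403 to 10896899 (49.5 kb), 10693201 to 10736377 (43.2 kb), 18305961 to 18348037 (42.1 kb) and 4779761 to 4821643 (41.9 kb). They were followed by 6136511 to 6178263 (41.8 kb), 20458981 to 20498699 (39.7 kb) and 14065201 to 14103697 (38.5 kb). Some lay in windows of middling coverage: the one from 9987043 on lay mostly in a window covered to 19.4% on average, above the arm's median.

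Intervals of at least 20 kb without a region in any list were fewest in the distal section. From proximal to distal the 5 sections held 19, 17, 17, 21 and 10 of them, so that their number did not fall steadily along the arm. Of the 84, 4 lay beyond 24.25 Mb, the border chosen by coverage, where they took 2.93% of the bases against 10.4% on the rest. The combined list filled most intervals that the replicates left empty. Without it, 30 intervals of at least 50 kb were empty in both replicates. The longest of these, 5059096 to 5171088 (112.0 kb), held 7 combined regions, and the second, 16185594 to 16292604 (107.0 kb), held 10.

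**Figure D5:**
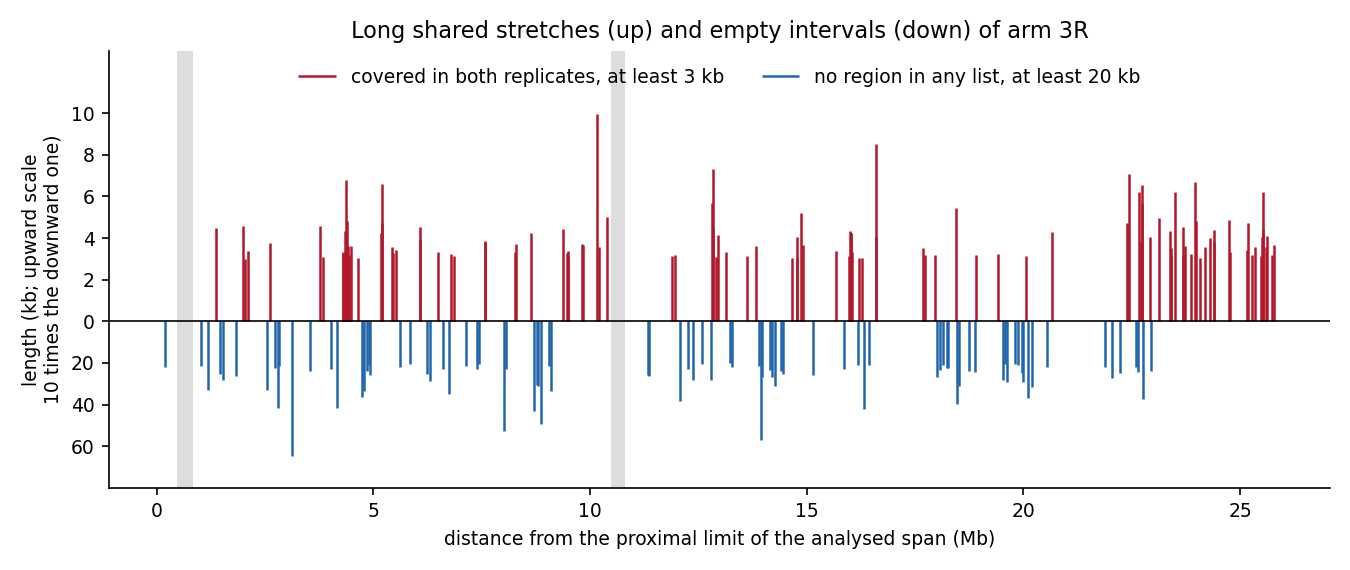
Stretches of at least 3 kb covered in both replicates (red, upward, kb) and intervals of at least 20 kb without a region in any list (blue, downward, kb, drawn at a scale 10 times smaller) along arm 3R, against the distance from the proximal limit of the analysed span (Mb); grey bands are the left-out intervals. Of the 114 stretches, 39 lie beyond 24.25 Mb and 75 on the rest of the span, and 4 of the 84 empty intervals lie beyond 24.25 Mb. Of all 1419 shared stretches of any length, 315 lie beyond 24.25 Mb.

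The authors gave each region 1 score on a log2 scale. Median scores were 0.65 in both replicates and 0.45 for combined regions, with quartiles of 0.58 and 0.73 in replicate 1, 0.59 and 0.71 in replicate 2, and 0.40 and 0.51 in the combined list. Wider regions scored higher, with a rho between width and score of 0.515, 0.533 and 0.434. Medians per 250-kb window ranged from 0.57 to 0.75 in replicate 1 and from 0.56 to 0.75 in replicate 2. They went up weakly with the coverage of the window (rho 0.226 and 0.419) and toward the distal end (rho 0.449 over 100 windows and 0.289 over 97 windows with at least 5 regions). By section, from proximal to distal, replicate 1 had medians of 0.63, 0.65, 0.65, 0.66 and 0.66, and replicate 2 of 0.62, 0.65, 0.64, 0.66 and 0.66. The 2 Mb to 7 Mb section was lowest in both.

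Scores of single regions varied between replicates. Over 1158 pairs of overlapping regions, matched one to one, rho was 0.321, beside 0.302 on 2L, 0.409 on 3L and 0.368 on the X. Window medians of the score had a rho of 0.279 over 97 windows. These pairs and windows share 2 libraries and carry no test.

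The 5 highest-scoring regions of replicate 1 all met a region of replicate 2, though not always a high one. The top region, 18540111 to 18542949, scored 1.27 in replicate 1 but shared only 141 bp with a region of replicate 2 that scored 0.55. Then came 14194266 to 14197322 with 1.24 against 0.64, 7197854 to 7203135 with 1.23 against 0.84, and 23510832 to 23514600 with 1.19 against 0.68. The last of them, 24407438 to 24410726, was high in both, with 1.18 and 0.95. All 5 top regions of replicate 2 met a region of replicate 1 as well. Its highest, 27807928 to 27809369, scored 1.28 and met 1.09 in replicate 1, and the lowest of the 5, 26391887 to 26396692, scored 0.97 and met 0.99. The others were 6457861 to 6460779 with 0.99 against 0.60, 13695206 to 13696527 with 0.98 against 0.83, and 24333557 to 24334957 with 0.98 against 0.78. High scores also occurred in 1 replicate alone: the region 25382440 to 25383815 scored 1.11 in replicate 1 with no region of replicate 2, and 9721676 to 9723142 scored 0.86 in replicate 2 with none of replicate 1.

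Among combined regions found in both replicates, the highest score belonged to 24407200 to 24410814, with a combined score of 0.97 and scores of 1.18 and 0.95 in the replicates. It was followed by 14194288 to 14197328 at 0.91, 12200700 to 12205578 at 0.88 and 24730736 to 24744414 at 0.87. The last of these was the widest of the 10 highest, with 13679 bp, of which 12198 bp were covered in both replicates. Next were 7198008 to 7204220 at 0.86, 22055670 to 22059592 and 25703392 to 25708468, both at 0.83, and 16900728 to 16903894 at 0.81. The list ended with 20907950 to 20910698 at 0.81 and 11863224 to 11866524 at 0.80. High scores did not need dense surroundings: the one from 22055670 on lay in a window that ranked 98 of 100, with an average coverage of 4.72%, with scores of 1.02 and 0.84 in the replicates. Its replicate regions bordered an interval empty in both replicates, 21952232 to 22055864 (103.6 kb).

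The 5 combined regions of 3R with scores above 1 were all absent from both replicates. They were hardly wider than the narrowest of the list, from 1003 to 1201 bp. Of all combined regions on 3R, 43.5% met neither replicate, with a median width of 1325 bp. The 5 were 8322286 to 8323288 and 16967430 to 16968434, both at 3.01, 27243156 to 27244200 at 1.75, 7213282 to 7214482 at 1.08 and 22344512 to 22345594 at 1.01. They were singled out after their values were seen. Whether the score of such narrow regions means the same as that of wide ones was not tested.

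Of the 4089 combined regions on 3R, 1019 overlapped both replicates (24.9%, interval 23.6 to 26.3%), against 24.4% of the whole combined list. A further 935 met replicate 1 only (22.9%, and 22.9% of the whole list) and 356 replicate 2 only (8.71%, and 8.74%). The remaining 1779 met neither (43.5%, interval 42.0 to 45.0%), against 43.9% of the whole list. These shares are near those of all regions. Median widths were 4059 bp for regions in both replicates, 2003 and 2020 bp for those in 1 of them, and 1325 bp for those in neither.

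Regions found in the combined list alone lay all along the arm and made up a larger share of the combined list where the replicates covered less. In the 25 windows with the highest mean coverage of the replicates (30.1%), 32.7% of the combined regions met neither replicate and 39.3% met both. Over the next 3 groups of 25 windows, down to the least covered (8.21%), the share in neither rose to 41.7%, 44.2% and 57.0%, and that in both dropped to 26.5%, 19.8% and 13.3%. The windows were ordered by the replicate coverage that also decides whether a combined region is met, so this gradient is a description. Per Mb, combined-only regions numbered 52.2 in the most covered group and 73.7, 74.1 and 81.2 in the others, so that outside the most covered group they were about equally frequent. Their counts in the 4 groups were 325, 457, 463 and 506. Even the least covered group had 28.0% of its bases in combined regions, so that the landscape of the combined list was flatter than that of the replicates.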

How the data were processed

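Bowtie 0.12.7 is named, without role or settings, per the submitters' processing notes. The authors deposited 1 list of enriched regions per ChIP replicate and a combined list on FlyBase release 5, per the file headers. Not given in the sources used here are the region caller, its threshold and how the combined list was made. Each region carries 1 deposited score on a log2 scale. The scale was found from the values: against the most frequent score of each list, 2 raised to the score differences gave ratios of whole numbers up to 20000 (relative tolerance 1e-12) for 100% of regions, while bases e and 10 did so for at most 1.87%. Scores were compared within lists, and between lists by rank or side by side.

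Positions are 1-based. Coverage used the bases of the span without the left-out intervals, and windows began at its proximal limit. Neighbour distances across a left-out interval were dropped. Overlap means at least 1 shared base. Named were the 10 highest-scoring combined regions met by both replicates, the 10 longest shared stretches and empty intervals, the 5 most and 5 least covered windows, the longest window runs, the 5 highest-scoring regions per replicate and the 5 widest combined regions. Other named regions were chosen after their values were seen. Members, rules and lists were chosen with earlier results of these data known. The interval functions were tested on simulated data. No input values were used. The value column of each replicate list was tied to its sample. The combined list names no sample and was treated as pooled ChIP, leaving 0 columns unused. Genes were left out, since the annotation used another genome release. The alternatives were a stricter score, equal list lengths, joined regions, other windows and overlaps, the arm above 5 Mb and leaving out each replicate. Python 3.11.15, numpy 2.4.6, scipy 1.17.1 and matplotlib 3.10.9 were used.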

Additional observations from a re-analysis of the deposited data

How the results depend on the processing

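Of 40 alternative values, beside 6 that leave out a replicate, 29 moved beyond the replicate SD, the interval or a factor of 1.5, or had no such yardstick (Jaccard index and correlations). The other 11 did not move. A change of direction was defined only for the correlations, the variance over mean and the distal over proximal coverage, and 0 of their values changed it. The other results have no direction that could change. Leaving out each replicate gave 14.9 to 21.1% for the covered share, 2.75 to 3.91 for the variance over mean of regions per window and 1.15 to 1.22 for distal over proximal coverage, which by construction stays within the SD. With regions above their list's median score, coverage was 9.90%, shared regions 37.8% (replicate 1) and 52.1% (replicate 2), the Jaccard index 0.241, the window coverage rho 0.769, the variance over mean 2.44, distal over proximal coverage 1.39 and empty intervals 30. The whole lists were also cut to equal numbers by highest score, which left 1621 and 1732 regions on 3R. Shared regions were then 55.2% and 55.6%, the Jaccard index 0.314 and the score rho 0.276. With at least 50% of a region covered, shared regions were 42.7% and 62.6%, and with 50% reciprocal overlap the score rho was 0.409. With regions under 1000 bp apart joined, the Jaccard index was 0.363, the variance over mean 1.93 and the long stretches 80. On the arm above 5 Mb the Jaccard index was 0.359, the score rho 0.317, the window rho 0.867 and distal over proximal coverage 1.05. The window rho, 0.859 over 250 windows of 100 kb, was 0.808 at 50 kb and 0.911 at 250 kb. The combined list gave 43.1% coverage, a variance over mean of 1.496 and distal over proximal coverage of 1.11. A cut into 2 parts in place of 3 gave 1.12, and empty intervals without the combined list numbered 30. Fewer or longer regions follow from the stricter score and the joining; other causes were left untested. No paired analysis was possible because only the ChIP samples have lists. Depth is unknown, so its part in the differing list lengths was not tested.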
